A study of Mus musculus with 74 samples.

Results

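The ribosomal protein genes of the mouse encode the proteins of the large (Rpl) and small (Rps) subunits of the cytoplasmic ribosome. Members were taken by gene symbol: Rpl or Rps followed by a number with an optional a, x or l, by p and a digit (the acidic stalk genes Rplp0, Rplp1 and Rplp2), or by a (Rpsa). The rule found 79 genes, 48 of the large and 31 of the small subunit, among 21241 genes in the table of the NSC-medium experiment and 20558 genes in the table of the parallel experiment. All 79 passed the filter on low values in both tables. Rps3a1, Rpl36al, Fau, Rack1, Rpl22l1 and Rpl7l1 are related genes that fall outside the symbol rule.

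Ribosomes translate messenger RNA into protein, and a cell that grows and divides builds new ones continuously. Each subunit combines ribosomal RNA, most of it transcribed by RNA polymerase I, with a set of proteins that are made in nearly equal numbers. Assembly takes place largely in the nucleolus with the help of many factors that do not stay in the finished particle. c-Myc, a transcription factor of proliferating cells, is known to act on ribosomal protein genes, on assembly factors and on RNA polymerase I. Many ribosomal protein transcripts begin with a C followed by a run of pyrimidines, through which their translation is tuned to nutrient and growth signals. A few members are extra copies of another member: Rpl10l and Rpl39l are copies of Rpl10 and Rpl39 best known from the male germ line, and Rps27l is a copy of Rps27.

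The study measured polyadenylated RNA while mouse embryonic fibroblasts (MEF, passage 1) were driven towards induced neural stem cells by doxycycline (Dox)-inducible lentiviral factors together with the transactivator M2rtTA. In the NSC-medium experiment, MEF carrying a Sox2-GFP reporter received Brn4/Klf4/c-Myc/eSox17FNV (called BKM_FNV here), Brn4/Klf4/c-Myc/Sox17 (BKM_Sox17), Brn4/Klf4/c-Myc/Sox2 (BKM_Sox2) or Klf4/eSox17FNV (K_FNV), where eSox17FNV is the engineered Sox17. Cells stayed in NSC medium with bFGF and EGF, were sampled at days 4, 8, 12 and 18 under Dox and again, once it was removed, at days 24 and 30, and were compared with primary neural stem cells (NSC) and established lines made with Brn4/Klf4/c-Myc/eSox17FNV (iNSC_BKMF) or Klf4/eSox17FNV (iNSC_KF), all at passage 15. In the parallel experiment, Klf4/c-Myc/eSox17FNV was expressed in MEF that carry Nanog-CreER, Rosa26-tdTomato and Sox2-GFP, first in N2B27 medium (days 4 and 8) and then either in NSC medium or in LIF/2i, a medium with LIF, CHIR99021 and PD0325901 that sustains pluripotent cells, sampled under Dox at days 12 and 16 and after its removal at days 20 and 24. K_FNV lacks Brn4 as well as c-Myc, so that effects of these factors cannot be told apart, and no cocktail was given without its factors to a matched culture on the same days. Most groups had 2 libraries, and the labels do not say whether they came from separate cultures, so that each p-value measures only the spread between these libraries.

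All values are the authors' normalized tag counts. Every library of a table follows nearly the same distribution, 10 genes share the highest value in every library (78139 in the NSC-medium table and 87546 in the parallel table), and sequencing depth is unknown. A member at that ceiling cannot show a further increase: Rplp0 stood there in 17 of the 53 libraries of the NSC-medium table and in 8 of the 26 of the parallel table, where Rpl30 and Rps4x did so in 7 each. The tables were normalized separately, and comparisons were made within a table. The MEF libraries carried fibroblast transcripts (summed value of 7 markers 207236 to 211676, against 613 to 639 in NSC), and the NSC libraries carried neural stem cell transcripts (116457 to 116660, against 1748 to 1873 in MEF, where Olig2, Sox2 and Sox3 were listed at 0). BKM_Sox2 day 24 replicate 1 correlated with its partner at only 0.0578 across genes (log2 values), whereas other pairs reached 0.937 or more, and it was left out. Values of a member are compared between libraries, never with those of another member, because they are not scaled by length.

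Reference sequence at the start of the genes was matched by symbol in RefSeq (GRCm38.p6), which gave 70 start windows for 59 of the 79 members. Of the 70 windows, 18.6% began with a C followed by at least 4 further pyrimidines, against 2.51% of all 32851 windows. The stretches below show this start for 5 members that the results return to or that show a long run. Each runs 5′ to 3′ on the gene's strand, and the pyrimidine run from the transcription start is in capitals.
Rps6, chr4:86857350-86857379, minus strand: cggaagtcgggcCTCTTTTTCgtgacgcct
Rpl28, chr7:4792953-4792982, plus strand: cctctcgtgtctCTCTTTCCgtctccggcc
Rpl38, chr11:114668568-114668597, plus strand: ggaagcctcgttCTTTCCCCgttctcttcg
Rplp2, chr7:141447639-141447668, plus strand: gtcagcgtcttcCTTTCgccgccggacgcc
Rps27, chr3:90213631-90213660, minus strand: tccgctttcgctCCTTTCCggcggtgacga

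The letters CACGTG, the E-box that Myc and its relatives can bind, were searched from 250 bases before to 50 bases after each start (the word reads the same on both strands). They occurred in 11.4% of the 70 member windows and in 7.15% of all windows. TCTCGCGA, also searched on both strands, occurred in 15.7% against 0.995%, CCGGAAG in 37.1% against 8.86%, and TATAAA in 8.57% against 13.6%. The word CACGTG is in capitals in 3 of the 6 members that hold it, the others being Rpl13a, Rpl14 and Rpl34.
Rpl19, chr11:98026679-98026708, plus strand: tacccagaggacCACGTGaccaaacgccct
Rpl23, chr11:97782425-97782454, minus strand: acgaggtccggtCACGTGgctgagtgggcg
Rps19, chr7:24884781-24884810, plus strand: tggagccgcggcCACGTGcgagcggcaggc

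The ribosomal protein genes together made up a larger share of the summed values in cultures with the c-Myc cocktails than in K_FNV cultures. On Dox the share was 5.01 to 5.64% in the 8 BKM_FNV libraries, 4.39 to 5.18% with BKM_Sox17, 3.83 to 5.17% with BKM_Sox2 and 2.57 to 3.49% with K_FNV. The K_FNV range lay below those of the other 3 cocktails without overlap. MEF, NSC and the established lines lay between 3.44 and 3.89%. In bulk RNA, fewer cells of a type and less RNA per cell cannot be told apart.

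**Figure D1:**
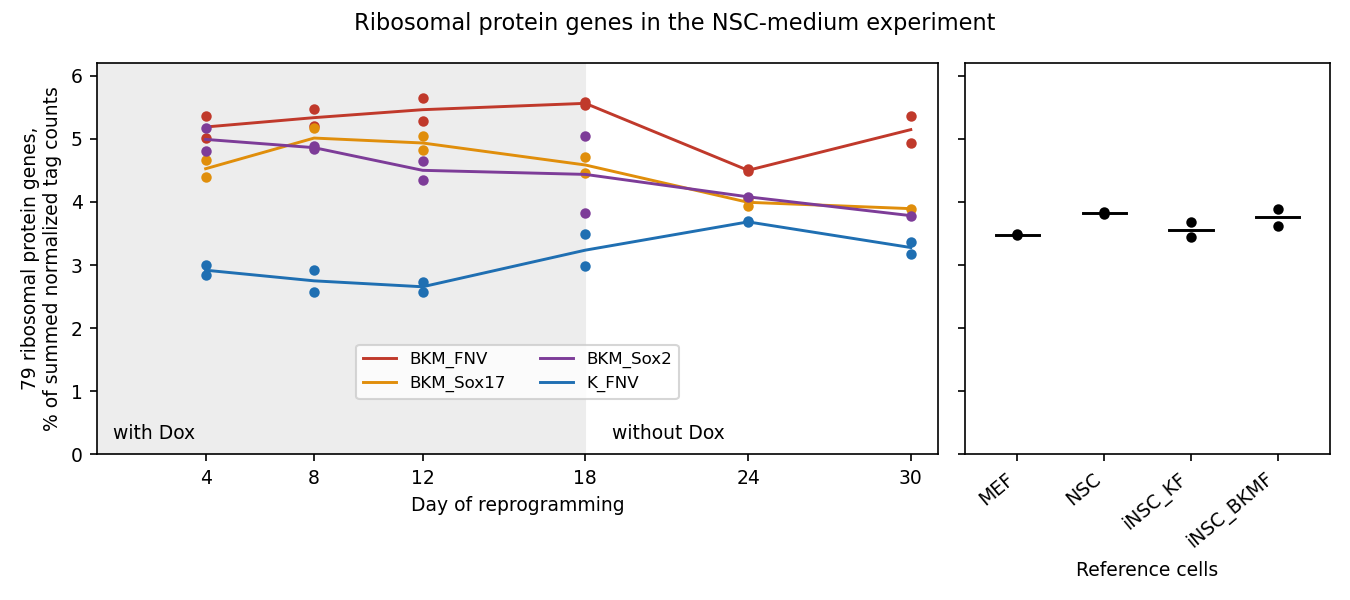
Share of the 79 ribosomal protein genes in the summed normalized values (percent, y axis) by day (x axis) in the NSC-medium experiment, 1 point a library, with the days on Dox shaded. The K_FNV libraries on Dox sit between 2.57 and 3.49%, below all BKM_FNV libraries on Dox (5.01 to 5.64%).

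K_FNV was compared with BKM_FNV over the 4 days on Dox to see how the family stands without c-Myc and Brn4. With limma and Benjamini-Hochberg adjustment over all 20760 genes tested, 75 of the 79 members were lower in K_FNV at an adjusted p under 0.05 and 0 were higher. Across all genes tested, 28.2% were called lower and 26.4% higher. The median difference of the members was -0.80 on the log2(value + 2) scale, against 0.01 for all genes. The 31 small subunit genes were all lower (median -0.91), as were 44 of the 48 large subunit genes (median -0.76). The 8 K_FNV libraries lay below all 8 BKM_FNV libraries for 60 members (10.5% of all genes), and 19 members were at least 2-fold lower (6.97% of all genes).

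Rplp0, the base of the acidic stalk that recruits translation factors, differed most. It stood at the ceiling of 78139 in all 6 BKM_FNV libraries of days 4, 8 and 12 and at 44404 in both of day 18, whereas K_FNV had 23871 in 7 libraries and 26505 in the other, and MEF had 34130 in both. The groups did not overlap, and the difference was -1.49 ± 0.08 (SE; limma, adjusted p = 5.22e-15), with the BKM_FNV side limited by the ceiling. Its stalk partners were also lower, Rplp1 by -0.63 ± 0.08 and Rplp2, whose pyrimidine start is shown above, by -0.75 ± 0.09.

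Rpl12, which sits at the foot of the stalk, had a lowest, median and highest value of 1014, 1195 and 1596 in BKM_FNV and of 335, 469 and 682 in K_FNV. MEF stood between these groups, at 709 and 712. The difference between the cocktails was -1.41 ± 0.12. Rpl3, a core protein of the large subunit near the peptidyl transferase centre, had 12547, 16291 and 23871 in BKM_FNV and 5533, 6115 and 8955 in K_FNV, with 7645 and 7448 in MEF. These libraries did not overlap either, and Rpl3 differed by -1.32 ± 0.06 (limma, adjusted p = 1.39e-16).

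Among the small subunit genes, Rpsa, which also has a history as a laminin receptor, differed most (-1.18 ± 0.07). Its lowest, median and highest values were 18425, 21716 and 29407 in BKM_FNV and 8533, 9641 and 12147 in K_FNV, without overlap. Rps6, the small subunit protein that S6 kinases phosphorylate, had 26505, 26505 and 29410 in BKM_FNV and 9479, 11383 and 16291 in K_FNV. The K_FNV values of Rps6 spanned those of MEF (12150 and 11686), and the difference from BKM_FNV was -1.18 ± 0.07 (limma, adjusted p = 7.28e-14). Rps27a, whose product is made fused to ubiquitin, was lower by -0.998 ± 0.085, and Rps4x, a gene on the X chromosome, by -1.07 ± 0.04.

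The 4 members that were not called were Rpl5, Rpl10, Rpl10l and Rpl39l. Rpl5 and Rpl11 travel with 5S ribosomal RNA and, outside the ribosome, can bind Mdm2. Rpl11 was lower (-0.76 ± 0.09), but Rpl5 differed by 0.02 ± 0.07 (adjusted p = 0.827): its values were 606 to 1567 in BKM_FNV and 737 to 1294 in K_FNV. Rpl39l had 137 to 186 in BKM_FNV and 137 to 203 in K_FNV, a difference of 0.06 ± 0.10, while its usual form Rpl39 was lower by -0.41 ± 0.07. Rps27l was lower by only -0.25 ± 0.08 (limma, adjusted p = 0.015), whereas Rps27 was lower by -0.88 ± 0.08. The call on Rps27l was lost without K_FNV day 4 replicate 2, day 8 replicate 1 or day 18 replicate 2 (adjusted p = 0.0516, 0.0645 and 0.0532). Rpl10l was near 0 in both groups, and Rpl10 varied widely between libraries (-0.33 ± 0.32). Rpl10 is uncertain because the table also lists the processed copy Rpl10-ps3 at high values, 10768 and 11078 in MEF and 23868 in both BKM_FNV libraries of day 18, and reads could be split between them. In all, 59 of the 79 members have named pseudogenes in the annotation, 291 of them.

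Genes that work with the ribosomal proteins moved the same way in this comparison. Of 64 ribosome assembly factors, 63 were lower in K_FNV and 0 higher (median -0.87). Nhp2, a component of H/ACA ribonucleoproteins, was lower by -1.79 ± 0.15, Rrp9 by -1.75 ± 0.12 and Rrp1b by -1.52 ± 0.08. For RNA polymerase I subunits and factors, 14 of 15 were lower, and for translation factors 34 of 38 were lower (median -0.52). The mitochondrial ribosomal proteins, which are encoded in the nucleus but serve the other ribosome of the cell, were lower in 55 and higher in 3 of 78 (median -0.37). Of 20 proliferation genes, 19 were lower (median -0.82).

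Myc itself, where reads of the introduced and the resident gene are not separated, ranged from 3252 to 12147 in BKM_FNV and from 925 to 1434 in K_FNV, a difference of -2.69 ± 0.09. Mycn, a family member with similar activity, was higher in K_FNV (1.99 ± 0.26), at 36 to 255 against 12 to 28. Markers of other cells differed as well. Over the 4 days, all 5 epithelial markers were lower in K_FNV (summed value 2567 to 4244 against 4300 to 20103, ranges that did not overlap). At day 4 alone, Krt18 was higher (1.92), Cldn4 and Epcam were lower (-4.36 and -1.12), and Krt8 and Cdh1 were not called. Also lower over the 4 days were 5 of 7 neural stem cell markers (1383 to 4420 against 2961 to 5841, with Olig2 listed at 0 throughout K_FNV) and 4 of 6 pluripotency markers (38 to 393 against 118 to 2425). Of 7 fibroblast markers 2 were higher, a share near the 26.4% of all genes, and the sums overlapped (163040 to 255319 against 83995 to 240443). The part of all these markers in the ribosomal protein result was not tested.

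The members that hold CACGTG had the same median difference here as the rest. It was -0.80 for the 6 of them, with a range of -0.94 to -0.56, and -0.80 for the 53 other members with a window. For the 13 members with a pyrimidine start it was -0.85, against -0.79 for the 46 without. These are descriptions of the windows and no test was made.

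**Figure D2:**
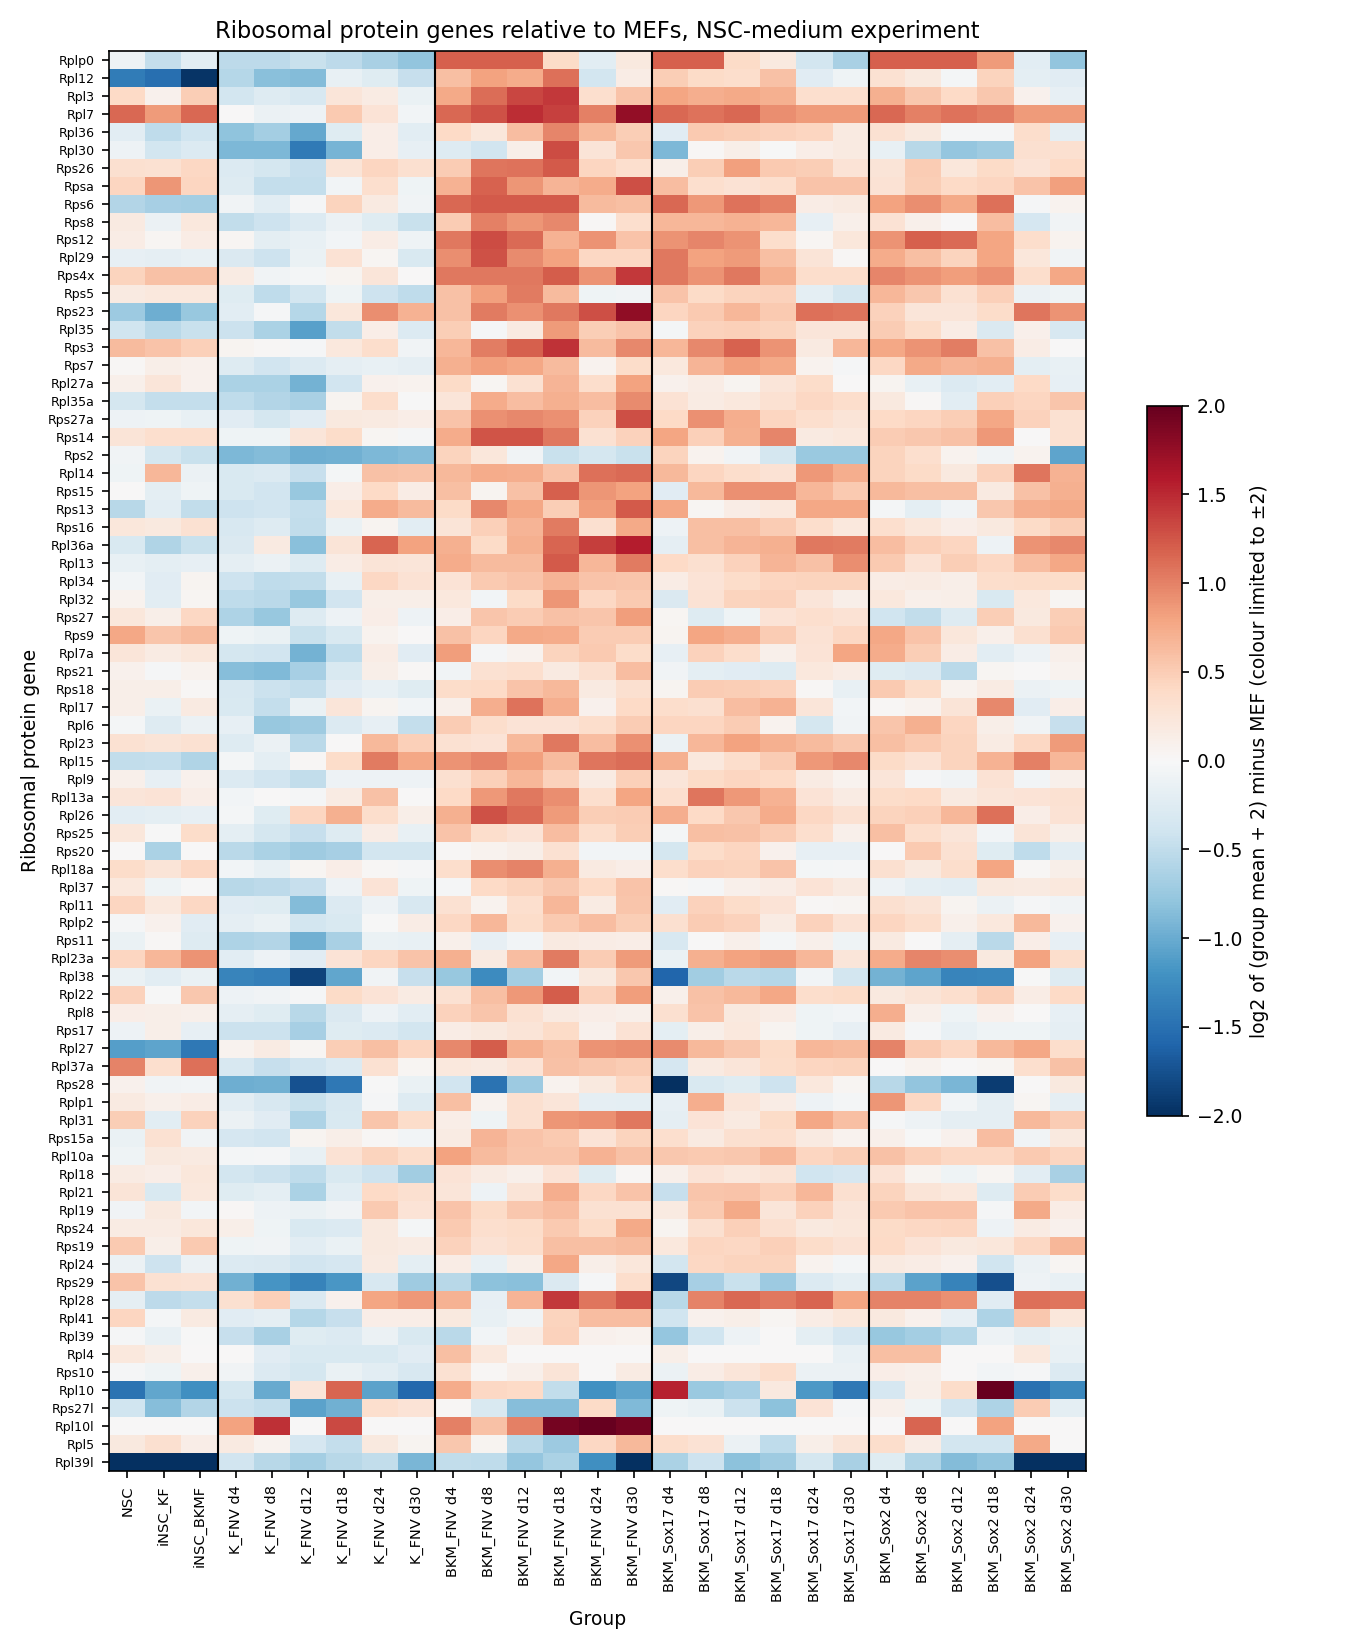
Log2(group mean + 2) minus that of MEF for the 79 ribosomal protein genes (rows) in the groups of the NSC-medium experiment (columns), ordered by the mean difference between K_FNV and BKM_FNV on Dox and coloured from -2 to 2. The K_FNV columns on Dox are lower than the BKM_FNV columns for most rows, and Rpl5, Rpl10l and Rpl39l are among the rows without that difference.

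The lower values of K_FNV were present on each day with Dox. At day 4, 66 members were lower (median -0.70) where 21.8% of all genes were called lower. At day 8, 57 were lower (median -0.76, background 20.6%), at day 12, 70 (median -0.98, background 17.9%), and at day 18, 68 (median -0.83, background 17.3%). No member was called higher on any of these days, where 19.4, 22.8, 18.0 and 15.3% of all genes were. With only the compared groups in the fit, the counts of days 12 and 18 were 42 and 28. The assembly factors took another course: their medians were -1.44, -1.18, -0.69 and -0.07 on the 4 days, with 64 of 64 lower at day 4 and 16 lower and 2 higher at day 18. The mitochondrial ribosomal proteins went from a median of -0.86 at day 4 through -0.31 and -0.24 to -0.07 at day 18.

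**Figure D3:**
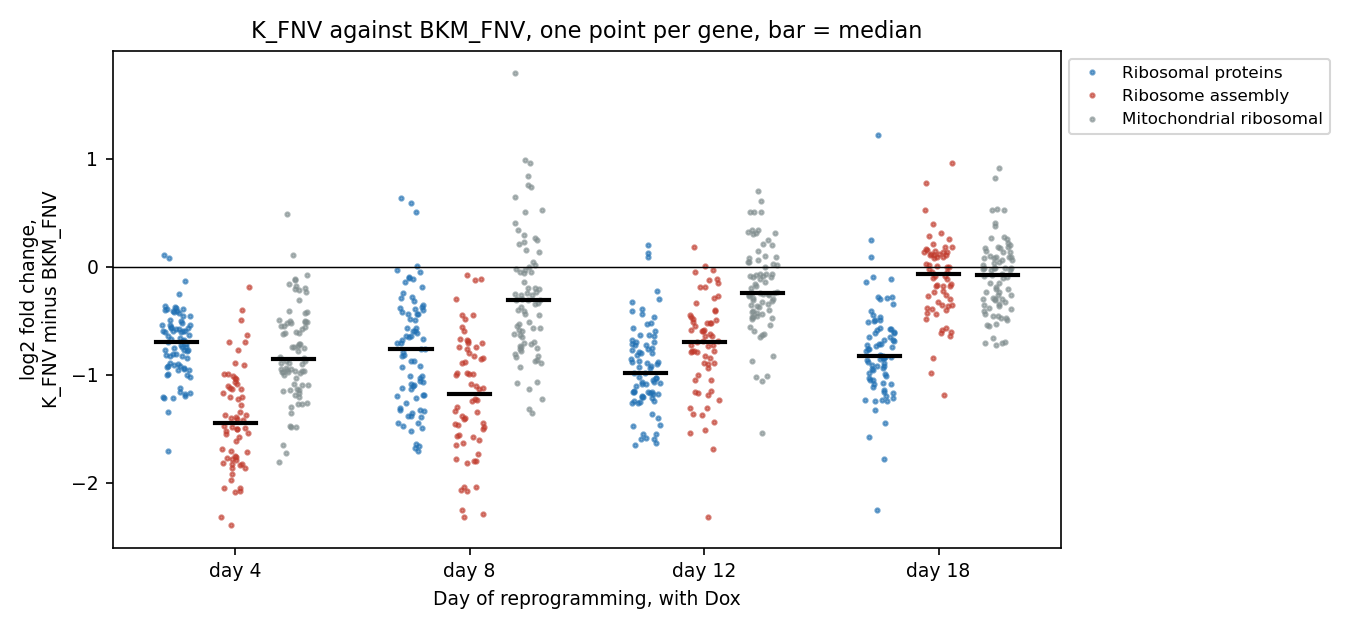
Difference of K_FNV from BKM_FNV (log2 scale, y axis) on each day with Dox for every ribosomal protein gene, ribosome assembly factor and mitochondrial ribosomal protein, with a bar at each median. The median of the ribosomal protein genes stays between -0.70 and -0.98, while that of the assembly factors goes from -1.44 at day 4 to -0.07 at day 18.

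Within BKM_FNV, 53 of the 79 members were not called between day 4 and day 18. Of the others, 21 rose and 5 fell (background 22.0 and 24.2%, median 0.28), a share of rising members near that of all genes, while 62 of 64 assembly factors fell (median -1.51), led by Rrp12 (-3.38), Grwd1 (-3.15) and Rrp9 (-3.14). Rpl30, a large subunit protein that binds its own transcript in yeast, rose most, from a mean of 8193 to 24108 (1.55 ± 0.28), followed by Rpl39 (0.99) and Rpl22 (0.92). Rpl5 fell most, from 1556 and 1567 at day 4 to 606 and 698 at day 18 (-1.26 ± 0.15). Rps2 and Rps27l fell by 0.89 and 0.88 on the log2 scale. All 20 proliferation genes and 60 of 78 mitochondrial ribosomal proteins fell too. The members called numbered 16 without BKM_FNV day 4 replicate 1, 17 without day 18 replicate 1 and 42 with only the compared groups in the fit.

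With BKM_Sox17, 26 members rose and 9 fell from day 4 to day 18 (background 20.1 and 23.5%, median 0.23), and 59 of 64 assembly factors fell. Rps28, Rpl28 and Rps15 rose most (1.80, 1.58 and 1.13), and Rplp0, Rpl5 and Rps2 fell most (-1.01, -0.86 and -0.79). With BKM_Sox2, 8 rose and 26 fell (background 18.2 and 22.7%, median -0.21), or 14 and 17 after rescaling. Rps28, Rpl28 and Rps29 were here the members that fell most (-1.41, -1.24 and -1.22), and Rpl10, Rpl17 and Rps27 rose most (2.29, 0.93 and 0.85). Rpl10 is uncertain here too, because its processed copy Rpl10-ps3 went from 19766 and 16288 at day 4 to 0 and 9215 at day 18. The BKM_Sox2 count of 34 was 21 without day 4 replicate 1, 22 without day 4 replicate 2 and 15 with only the compared groups in the fit. With K_FNV, 12 rose and 3 fell (background 13.2 and 16.3%, median 0.18), a share of rising members near that of all genes. Of 64 assembly factors, 18 fell and 3 rose (median -0.25). Rpl26, Rpl3 and Rpl29 rose most (0.74, 0.62 and 0.57), and Rpl5, Rps27l and Rpl4 fell (-0.65, -0.54 and -0.30). Without K_FNV day 18 replicate 1, the split was 10 and 13, without day 4 replicate 2 the count was 9, and with the compared groups only it was 8. Rpl5 fell with all 4 cocktails, by 0.75 on the log2 scale with BKM_Sox2.

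The difference between the K_FNV and BKM_FNV courses was called in 15 members, 9 with a higher and 6 with a lower change in K_FNV (background 15.5 and 14.3%, median -0.07). For the assembly factors, 61 of 64 had a higher change in K_FNV and 0 a lower one (median 1.34). The split of the 15 members was not stable: it became 2 and 8 after rescaling, 3 and 4 without BKM_FNV day 4 replicate 2, and 7 and 18 without K_FNV day 18 replicate 1. The count was 7 without K_FNV day 4 replicate 1, 8 without K_FNV day 4 replicate 2, K_FNV day 18 replicate 2 or BKM_FNV day 18 replicate 2, and 9 without BKM_FNV day 18 replicate 1.

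The other c-Myc cocktails were compared with BKM_FNV over the same days. BKM_Sox17 had 27 members lower and 0 higher than BKM_FNV on Dox (background 11.5 and 12.4%), with a median of only -0.16. Rps26 was lower by -0.47 ± 0.09 (lowest, median and highest 8134, 11383 and 16291, against 10522, 16291 and 21719), Rpsa by -0.47 ± 0.07 and Rps27 by -0.45 ± 0.08, with overlap in Rps26. BKM_Sox2 had 45 lower and 3 higher (background 16.0 and 16.2%, median -0.28). Rpl30, Rps26 and Rps27 were lowest (-0.74, -0.61 and -0.61), and Rps27l, Rps2 and Rpl4 were higher (0.24, 0.16 and 0.09). Of 64 assembly factors, 11 were higher with BKM_Sox17 and 27 with BKM_Sox2, with 1 lower in each. With BKM_Sox17 most were not called, and the share that was higher was not far above the 12.4% of all genes. The comparisons of K_FNV, BKM_Sox17 and BKM_Sox2 share the BKM_FNV libraries.

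Against MEF, the question was how the family stood at day 4 of Dox. The MEF had no factors and no Dox. Effects of the factors, of Dox, of the medium and of days in culture therefore cannot be told apart. BKM_FNV had 41 members higher and 3 lower (background 24.8 and 25.6%, median 0.46). Rplp0, Rpl7, Rps6 and Rps4x rose most (1.19 ± 0.16, 1.16 ± 0.17, 1.15 ± 0.14 and 1.06 ± 0.07), and Rpl38, Rpl39 and Rpl39l were lower (-0.75, -0.54 and -0.49). BKM_Sox2 had 32 higher and 3 lower (background 23.0 and 24.8%, median 0.37), and its count of 35 was 53 after rescaling and 56 with only the compared groups in the fit. BKM_Sox17 had 25 and 9 (background 23.2 and 25.1%, median 0.11), or 40 and 5 after rescaling. In BKM_Sox17 the lower members were led by Rps28 (-2.21 ± 0.51, mean 616 against 2855), Rps29 (-1.83 ± 0.27) and Rpl38 (-1.58 ± 0.24). K_FNV had 0 higher and 24 lower (background 18.9 and 27.6%, median -0.27), with Rpl38 (1238 against 3109, -1.34 ± 0.24), Rps29 (-0.95) and Rpl30 (-0.90) lowest. Rescaling turned the K_FNV split to 3 and 4 with a median of 0.04 and moved the median of all genes by 0.21, so that no direction against MEF holds for K_FNV. All 4 comparisons share the 2 MEF libraries. The BKM_FNV count of 44 was 29 without day 4 replicate 2, the BKM_Sox2 count of 35 was 21 without day 4 replicate 2, the BKM_Sox17 count of 34 was 21 without MEF replicate 2, and the K_FNV count of 24 was 12 without day 4 replicate 2 and 15 without either MEF library.

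Several of the members that were lower than MEF at day 4 encode very short proteins. 10 members have coding sequences under 300 bases in GENCODE, among them Rpl41, Rpl39 and Rpl39l, Rps29, Rps28 (207 bases) and Rpl38 (210 bases). Their median difference from MEF was -0.22 in BKM_FNV, -0.52 in BKM_Sox17, -0.32 in BKM_Sox2 and -0.59 in K_FNV, against 0.52, 0.21, 0.40 and -0.25 for the other members. Across the 79 members, Spearman's correlation of the difference with coding length was 0.62, 0.64, 0.52 and 0.43 in these cocktails; the points share their libraries, and genes are not independent replicates. For K_FNV against BKM_FNV on Dox it was -0.22, and -0.33, -0.30, -0.19 and 0.17 on the single days. From day 4 to day 18 it was -0.38 in BKM_FNV, -0.49 in BKM_Sox17, 0.12 in BKM_Sox2 and 0.01 in K_FNV. In BKM_Sox17 the short members had a median change of 0.56 over these days, against 0.18 for the others. The difference between the K_FNV and BKM_FNV courses gave a correlation of 0.40. The labels' protocols include a step of size selection, and its part in these values was not tested. Macrophage markers differed between the same groups, with a summed value of 2795 to 3070 in MEF, 425 to 428 in BKM_FNV and 595 to 638 in K_FNV at day 4. So did the sums of the fibroblast markers (207236 to 211676 in MEF, 83995 to 98010 in BKM_FNV and 163040 to 168344 in K_FNV), the 5 epithelial markers (349 to 374, 4300 to 4910 and 2745 to 2830) and the 4 neuron markers (1278 to 1394, 7928 to 8956 and 7817 to 8360). Across the 4 cocktails, 3 to 5 of 7 fibroblast and 3 to 4 of 5 macrophage markers were lower than in MEF and 3 to 4 of 5 epithelial and 2 to 4 of 4 neuron markers were higher, with 1 epithelial marker lower in BKM_FNV. Their part was not tested either.

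After Dox was withdrawn, BKM_FNV kept a larger share of ribosomal protein transcripts (4.48 to 5.35%) than K_FNV (3.18 to 3.69%), again without overlap. The other c-Myc cocktails lay below BKM_FNV. At days 24 and 30 the share was 3.99% (mean of 2 libraries) and 3.89% (1 library) with BKM_Sox17. With BKM_Sox2 it was 4.08 and 3.78% (1 library each). Myc had by then come down to 391 to 582 in BKM_FNV and 493 to 734 in K_FNV. It stood at 3025 (mean) and 3435 in BKM_Sox17 and at 425 and 260 in BKM_Sox2. Of the members, 58 were lower and 2 higher in K_FNV (background 25.3 and 28.1%, median -0.42), and for 63 all 4 K_FNV libraries lay below all 4 BKM_FNV libraries (21.0% of all genes). Rpl7, a large subunit protein, had 12547 to 18428 in K_FNV and 26505 to 44404 in BKM_FNV (-1.28 ± 0.12). Rps4x was lower by -1.05 ± 0.05, Rpsa by -0.89 ± 0.10, Rplp0 by -0.71 ± 0.11, Rps6 by -0.55 ± 0.10 and Rpl3 by -0.43 ± 0.09 (limma, adjusted p from 2.85e-16 for Rps4x to 0.000102 for Rpl3). Rplp1 differed by 0.05 ± 0.11 and was not called, and Rpl5, not called on Dox, was lower (-0.41 ± 0.10).

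The 2 members that were higher in K_FNV after Dox were the copies Rpl39l and Rps27l. Rpl39l had 124 to 196 in K_FNV and 37 to 112 in BKM_FNV (1.02 ± 0.14), without overlap. Rps27l had 8955 to 9809 in K_FNV and 3667 to 9809 in BKM_FNV (0.56 ± 0.12), so that the groups overlapped. Rpl39 and Rps27 were lower (-0.29 ± 0.11 and -0.67 ± 0.12). Rpl10l was listed at 0 in every K_FNV library of these days and had a mean of 6.75 in BKM_FNV. Of the mitochondrial ribosomal proteins, 17 were higher and 16 lower, of the assembly factors 6 and 30, and all 20 proliferation genes were lower (median -2.27). Beside these, all 7 neural stem cell markers were lower in K_FNV, at a sum of 2256 to 3144 against 9514 to 16421 and with Olig2, Sox2 and Sox3 listed at 0. All 6 pluripotency markers (sum 21 to 48 against 305 to 3301) and all 4 neuron markers (773 to 1640 against 4197 to 9772) were lower as well, without overlap of the sums, and all 5 epithelial markers were lower with overlapping sums (170 to 855 against 60 to 9375). The part of these markers in the result was not tested. Mycn was lower too (-2.18 ± 0.36), at 65 to 126 against 293 to 522.

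The cell types at the ends of the process were compared next. NSC had 14 members higher and 7 lower than MEF (background 30.7 and 26.2%, median 0.09), and 8 and 10 after rescaling. Rpl7, Rpl37a and Rps9 were higher (1.16, 0.99 and 0.77), and Rpl12, Rpl27 and Rps6 lower (-1.43, -1.10 and -0.59). Rpl39l was listed at 0 in NSC and in the established lines, against 243 and 263 in MEF. By contrast, 55 of 64 assembly factors were lower in NSC. The iNSC_BKMF lines had 0 members higher and 2 lower than NSC (Rps2 -0.37 and Rpl4 -0.21; background 3.07 and 2.76%). The iNSC_KF lines had 2 higher and 7 lower than NSC (background 11.1 and 11.1%), and 4 and 6 after rescaling, with Rpl14 (0.75) and Rpsa (0.45) higher and Rpl31 (-0.72), Rpl37a (-0.65) and Rps20 (-0.65) lowest. The split of iNSC_KF against iNSC_BKMF was again 2 and 7 (background 14.6 and 14.6%), or 3 and 6 after rescaling, led by Rpl14 (0.79) and Rpl37a (-0.75), while 35 of 64 assembly factors were higher and 0 lower. With only the compared groups in the fit, NSC against MEF gave 35 calls, iNSC_KF against NSC 2 and iNSC_BKMF against NSC 1, and the last comparison had 0 calls without NSC replicate 1 and 1 without any other library.

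In the parallel experiment the family occupied up to 11.6% of the summed values. The MEF, NSC and iNSC_BKMF libraries set beside it are those of the NSC-medium experiment. These MEF are therefore not the MEF with Nanog-CreER in which the parallel cocktail was expressed. The share was 3.64 to 4.16% in MEF, NSC and iNSC_BKMF, 5.22 to 7.61% in N2B27, 9.78 to 11.2% in NSC medium with Dox and 7.69 to 11.6% in LIF/2i with Dox. Without Dox it was 4.32 to 5.77% in NSC medium but 8.51 to 9.04% in LIF/2i. Myc was 2080 to 3594 in NSC medium with Dox and 304 to 824 after it, and 2269 to 5648 in LIF/2i with Dox and 77 to 546 after it.

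**Figure D4:**
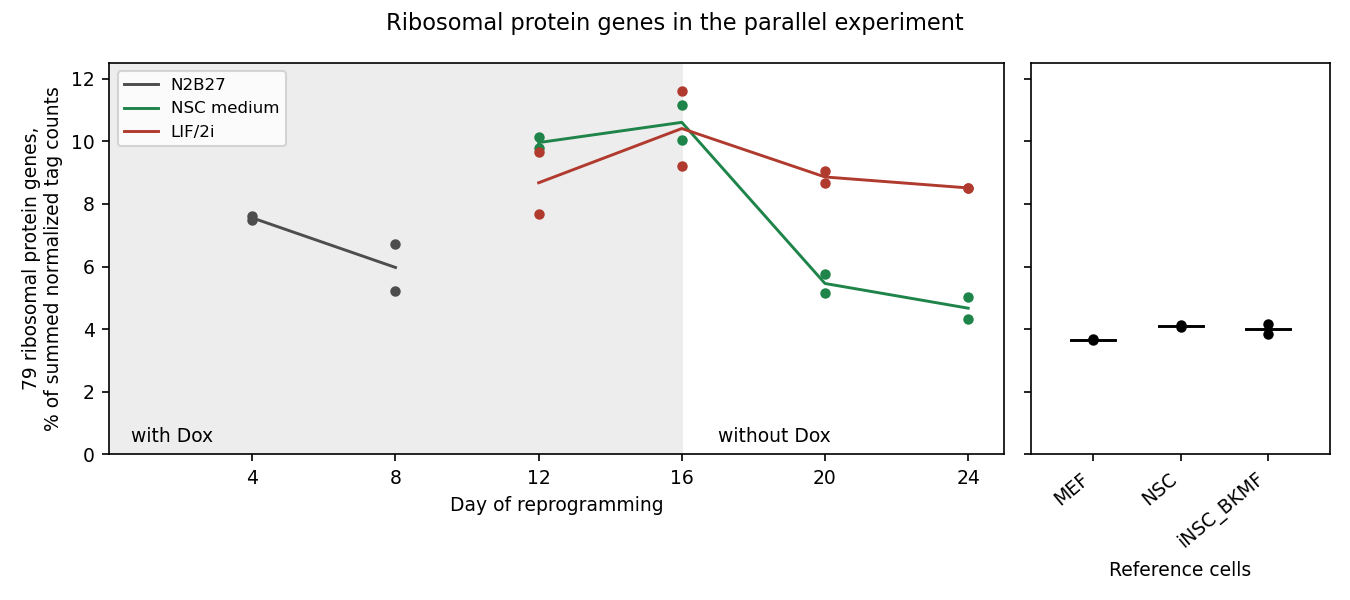
Share of the 79 ribosomal protein genes in the summed normalized values (percent, y axis) by day (x axis) in the parallel experiment, 1 point a library. After Dox withdrawal the libraries in NSC medium sit between 4.32 and 5.77% and those in LIF/2i between 8.51 and 9.04%.

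Within N2B27, 23 members were lower and 1 higher at day 8 than at day 4 (background 5.96 and 6.07%, median -0.45). Rpl30, Rpl38 and Rps24 were lowest (-1.13, -0.92 and -0.87), and Rplp0 was higher (0.84). This comparison rested on single libraries: 4 members were called without day 8 replicate 2, 5 without day 4 replicate 1, 13 without day 4 replicate 2 and 44 without day 8 replicate 1, and with only these groups in the fit 1 member was called, which was higher. Day 12 in NSC medium had 67 members higher and 0 lower than N2B27 day 8 (background 19.5 and 17.7%, median 0.76), led by Rpl10 (2.31), Rpl30 (1.97 ± 0.31) and Rps4x (1.65), the last 2 at the ceiling in both day 12 libraries. Day 12 in LIF/2i had 55 higher and 0 lower (background 18.0 and 15.6%, median 0.58), led by Rpl10l (2.91), Rpl12 (1.17) and Rpl38 (1.05). These comparisons share the day 8 libraries, and without day 8 replicate 2 they gave 43 and 26. The LIF/2i count was 27 without LIF/2i day 12 replicate 1 and 9 with only the compared groups in the fit.

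In NSC medium, nearly the whole family was lower after Dox was withdrawn. No culture of the parallel experiment was sampled on Dox after day 16. Withdrawal and later days in culture therefore cannot be told apart, here and in LIF/2i below. Against days 12 and 16, 77 members were lower and 1 higher at days 20 and 24 (background 30.3 and 25.3%, median -0.97), 38 were at least 2-fold lower (9.33% of all genes), and the groups did not overlap for 76 (21.7%). Rpl30 fell most, from the ceiling of 87546 in all 4 libraries on Dox to 34147, 19620, 8617 and 11669 (-2.44 ± 0.22; limma, adjusted p = 3.65e-07). Rpl12 went from 1521, 1398, 2701 and 2820 to 585, 572, 489 and 662, again without overlap (-1.80 ± 0.14). Rps6 went from 30890, 30890, 39810 and 30890 to 21966, 17713, 15440 and 19623 (-0.83 ± 0.10).

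The 5S partners fell together here, Rpl5 by -1.09 ± 0.12 and Rpl11 by -0.74 ± 0.06, as did the stalk genes Rplp0, Rplp1 and Rplp2 (-0.96 ± 0.07, -1.01 ± 0.11 and -1.34 ± 0.21). Rpl10 and Rpsa were lower by -1.82 ± 0.26 and -1.71 ± 0.27, and Rpl36a by -1.55 ± 0.17. The only member that rose was Rpl10l (1.67 ± 0.38), from 12, 6, 17 and 13 to 33, 54, 29 and 52. All 78 mitochondrial ribosomal proteins and 60 of 64 assembly factors fell. The 20 proliferation genes did not follow, with 6 higher and 6 lower. Myc was lower (-2.45 ± 0.20), and 5 of 7 fibroblast markers were higher and 1 lower, their sum going from 52400 to 137978 on Dox to 297466 to 306341 after it. Of 5 epithelial markers 3 were lower, and their sums did not overlap either (13184 to 16069 on Dox and 2581 to 7344 after it). Their part in the result was not tested.

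In LIF/2i, 66 of the 79 members were not called across the same withdrawal. Of the others, 10 were lower and 3 higher after Dox (background 23.9 and 16.6%, median -0.06). After rescaling, 5 were higher and 4 lower. Without LIF/2i day 12 replicate 1 the split was 6 and 4, and the count of 13 was 8 without day 20 replicate 1, day 20 replicate 2 or day 24 replicate 2. Rps6 stayed at 30890 to 39810 in all 8 libraries (0.09 ± 0.10, not called). Rplp0, at the ceiling of 87546 in all 4 libraries on Dox and at 49062 in all 4 after it, was lower (-0.84 ± 0.07), as were Rps12 (-0.64 ± 0.18) and Rps27l (-0.46 ± 0.13). The higher members were Rpl10l (4.03 ± 0.38), Rpl39l (0.87 ± 0.12) and Rpl23 (0.26 ± 0.09). The assembly factors fell in 49 of 64 and rose in 0. Marker sums moved with this withdrawal too, from 21322 to 36363 to 54874 to 83615 for pluripotency, from 14865 to 19121 to 8697 to 12399 for epithelial and from 6500 to 9698 to 1736 to 3540 for neuron markers, and their part was not tested.

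The difference between the media in this response was called in 71 members, all with a higher change in LIF/2i (background 16.1%, median 0.93), led by Rpl30 (2.48), Rpl10l (2.36) and Rpl13 (1.84). Rpl13, a large subunit protein, had 30887 to 87546 in NSC medium on Dox and 12946 to 19620 after it, against 21964 to 49058 and 34147 to 39802 in LIF/2i. On Dox the media had differed in 21 members, 6 higher and 15 lower in LIF/2i (background 22.6 and 22.0%, median -0.14), or 8 and 11 after rescaling and 5 and 6 with only these groups in the fit. Rpl10l, Rps12 and Rps2 were higher (1.99 ± 0.38, 0.69 ± 0.18 and 0.64 ± 0.14) and Rpl10, Rpl30 and Rpl13 lower (-0.99 ± 0.26, -0.76 ± 0.22 and -0.71 ± 0.13). The sums of the pluripotency markers did not overlap between the media on Dox (21322 to 36363 in LIF/2i and 2669 to 9293 in NSC medium), and their part was not tested. The comparisons of this paragraph and those on withdrawal share their libraries.

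After Dox, 73 members were higher in LIF/2i than in NSC medium and 0 lower (background 26.3 and 30.5%, median 0.83), and for 70 the groups did not overlap (24.5% of all genes). Rpl30 had a mean of 60032 against 18513 (1.73 ± 0.22), although its LIF/2i values of 87546, 87546, 30887 and 34147 came within the NSC-medium range of 8617 to 34147. Rps4x was higher by 1.47 ± 0.30, with 3 of its 4 LIF/2i libraries at the ceiling, Rpl5 by 1.11 ± 0.12, Rpl36a by 1.08 ± 0.17, Rplp1 by 1.06 ± 0.11, Rplp2 by 1.02 ± 0.21, Rps6 by 0.94 ± 0.10 and Rpl3 by 0.43 ± 0.08 (limma, adjusted p from 8.23e-07 for Rplp1 to 0.000675 for Rplp2). Rpl10 (0.33 ± 0.26) and Rps27l (0.25 ± 0.13) were not called. Rpsa was called at 0.83 ± 0.27 (adjusted p = 0.0151) but not without LIF/2i day 24 replicate 1 (adjusted p = 0.0519).

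The assembly factors were higher in 61 of 64 and lower in 0 (median 0.93; Rrp9 2.60, Rrp12 2.23, Grwd1 1.84), the mitochondrial ribosomal proteins in 61 of 78 with 2 lower, and the proliferation genes in 19 of 20. Myc was lower in LIF/2i (-1.48 ± 0.20) and Mycn higher (1.78 ± 0.30), at 382 to 551 against 51 to 231. Pluripotency markers moved with these groups: 5 of 6 were higher, with a summed value of 54874 to 83615 against 1553 to 6736, and 3 of 5 epithelial markers were higher (8697 to 12399 against 2581 to 7344). Of 7 fibroblast markers 2 were lower, a share near the 30.5% of all genes, with sums that did not overlap (189899 to 290030 against 297466 to 306341). The part of all these markers in the result was not tested.

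Rpl10l and Rpl39l, the copies of Rpl10 and Rpl39, had their highest values of the parallel experiment in LIF/2i after Dox. Rpl10l (chromosome 12, 66283379 to 66284401, GRCm38) was listed at 0 in both MEF libraries and in 3 of 4 N2B27 libraries. In LIF/2i it had 28 and 32 at day 12, 110 and 68 at day 16, 647 and 434 at day 20 and 1515 and 1333 at day 24, each day's pair above the pair of the day before. In NSC medium no library exceeded 54, and after Dox the media differed by 4.35 ± 0.38 (limma, adjusted p = 1.15e-07). Rpl10 on the X chromosome did not show this difference. Rpl39l had 537, 450, 584 and 576 in LIF/2i after Dox and 279, 286, 138 and 187 in NSC medium (1.32 ± 0.12, no overlap), and Rpl39 was higher as well (0.70 ± 0.11). Rpl39l was also present in MEF, at 252 and 271, and was listed at 0 in NSC and iNSC_BKMF. The MEF libraries here are again those of the NSC-medium experiment, not the starting cells of the parallel cultures.

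**Figure D5:**
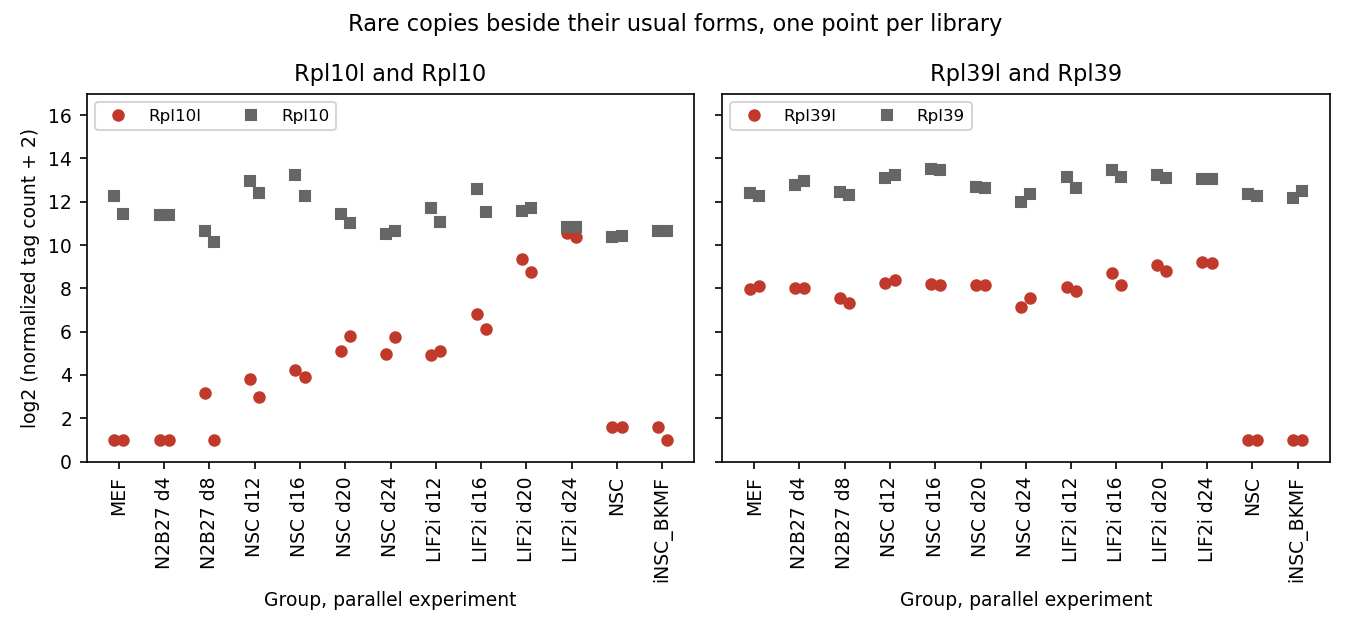
Normalized values of Rpl10l and Rpl10, and of Rpl39l and Rpl39, in each library of the parallel experiment, on a log2(value + 2) axis. Rpl10l reaches 1515 and 1333 in LIF/2i at day 24 and no more than 54 in NSC medium.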

How the data were processed

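Polyadenylated RNA was measured in 74 samples (80 columns of 2 tables, since MEF, NSC and iNSC_BKMF stand in both; 4 further columns were not used). The deposited values are the authors' normalized tag counts per gene, whole numbers here treated as a score; per the submitters' processing notes reads were handled with Bowtie2 2.0, RSEM and mm10, and the normalization method is not given in the sources used here. Its shared value steps fix each library's distribution, so levels relative to other genes are measured, not amounts per cell, and depth is unknown. NSC columns were matched to the group only.

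Genes with at least 10 in at least 2 libraries (20760 and 20468) were fitted with limma 3.58.1 (R 4.3.3) on log2(value + 2), with 1 mean per group, all groups of a table and a variance trend. A call is a Benjamini-Hochberg adjusted p under 0.05 over all genes of a contrast. Libraries that correlated with their replicate at under 0.5 were left out; groups with 1 library borrow the spread of the others. The script was tested on simulated data. "Rescaling" means factors by the trimmed mean of M values; the pseudocount, filters, variance trend, fitted groups, replicate block and single libraries were also varied. No pairing of libraries by replicate number was seen, which does not exclude one. The 79 members and all gene lists were chosen with earlier results of these data known. Named with values were the 3 largest increases and decreases among called members of each contrast, the stalk, 5S partners, Rps6, Rpsa, Rps27a and the copies. The comparisons by single day and the counts by coding length (GENCODE vM21) and start window were added after the data were seen.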

Additional observations from a re-analysis of the deposited data

Results flagged for a closer look

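The difference between contrasts was itself called in the following results. No group held enough libraries (at least 4) to look for a single distant library.

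From day 4 to day 18, the change in K_FNV was higher than that in BKM_FNV in 9 of 79 ribosomal protein genes and lower in 6, shares below those of all genes (15.5% higher and 14.3% lower). The split became 2 and 8 after rescaling, 3 and 4 without BKM_FNV day 4 replicate 2 and 7 and 18 without K_FNV day 18 replicate 1. On the log2 scale the difference between the changes was 2.43 for Rpl10, 0.84 for Rps2 and 0.82 for Rplp0, and -0.80 for Rpl39, -0.96 for Rpl31 and -1.59 for Rpl30. Rpl10 is uncertain beside its processed copy, and Rplp0 was at the ceiling of the table in BKM_FNV at day 4. In the parallel experiment, the change from the days with Dox to those without was higher in LIF/2i than in NSC medium in 71 members (16.1% of all genes were higher and 17.8% lower), with differences of 2.48 for Rpl30, 2.36 for Rpl10l and 1.84 for Rpl13. Rpl30 was at the ceiling in all 4 libraries in NSC medium with Dox.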

How the results depend on the processing

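The counts of called members kept their direction and stayed within 1.5 times with a pseudocount of 8, other filters on low values, no variance trend and a replicate block (all 29 comparisons). The replicate block gave 75 for K_FNV against BKM_FNV on Dox. Same-numbered libraries correlated at -0.05 to 0.03 across genes. No pairing by number was seen, but these values cannot tell whether same-numbered libraries share an origin. The cause of the changes below was not tested.

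After rescaling, the count turned direction for LIF/2i after against on Dox (9), NSC against MEF (18) and the K_FNV against the BKM_FNV course (10), and moved for BKM_Sox2 (53) and K_FNV (7) day 4 against MEF and iNSC_BKMF against NSC (1). With the compared groups only, it turned for N2B27 day 8 against day 4 (1) and moved for LIF/2i day 12 against N2B27 day 8 (9), LIF/2i against NSC medium on Dox (11), NSC against MEF (35), BKM_Sox2 (56) and K_FNV (38) day 4 against MEF, day 18 against day 4 of BKM_FNV (42), BKM_Sox2 (15) and K_FNV (8), iNSC_KF (2) and iNSC_BKMF (1) against NSC, and K_FNV against BKM_FNV at days 12 (42) and 18 (28). With the library of low correlation kept, the counts against MEF were 12 for NSC, 23 for BKM_FNV, 18 for BKM_Sox17, 19 for BKM_Sox2 and 8 for K_FNV; those against BKM_FNV on Dox were 9 for BKM_Sox17 and 27 for BKM_Sox2; those of day 18 against day 4 were 14, 17, 17 and 4 for BKM_FNV, BKM_Sox17, BKM_Sox2 and K_FNV; the courses gave 2, K_FNV against BKM_FNV after Dox 38, iNSC_KF against NSC 1, iNSC_BKMF against NSC 0 and iNSC_KF against iNSC_BKMF 2.

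Leaving out each library in turn gave 72 to 75 for K_FNV against BKM_FNV on Dox, 51 to 60 after Dox, and 46 to 65, 46 to 57, 58 to 71 and 52 to 66 at days 4, 8, 12 and 18. Against MEF it gave 15 to 15 for NSC, 29 to 38 for BKM_FNV, 21 to 27 for BKM_Sox17, 21 to 31 for BKM_Sox2 and 12 to 17 for K_FNV. For day 18 against day 4 it gave 16 to 25 for BKM_FNV, 24 to 34 for BKM_Sox17, 21 to 36 for BKM_Sox2 and 9 to 23 for K_FNV, the last turning direction without K_FNV day 18 replicate 1 (23). The course comparison gave 7 to 25 and turned without BKM_FNV day 4 replicate 2 (7) and without K_FNV day 18 replicate 1 (25). BKM_Sox17 and BKM_Sox2 against BKM_FNV gave 21 to 30 and 44 to 57, and the lines 6 to 9 (iNSC_KF) and 0 to 1 (iNSC_BKMF) against NSC and 6 to 10 against each other. In the parallel experiment, N2B27 day 8 against day 4 gave 4 to 44, day 12 against N2B27 day 8 43 to 69 in NSC medium and 26 to 65 in LIF/2i, LIF/2i against NSC medium 15 to 30 on Dox and 71 to 74 after it, NSC medium after against on Dox 77 to 78, LIF/2i after against on Dox 8 to 18 (10 and turned without LIF/2i day 12 replicate 1), and the difference between those responses 66 to 72. A group left with 1 library is assumed to vary like the others.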

Other observations

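RNA polymerase I and the translation factors, gene groups that serve ribosome production and use, also differed between the media of the parallel experiment. After Dox, 13 of 15 RNA polymerase I genes and 26 of 38 translation factors were higher in LIF/2i than in NSC medium, with 0 and 2 lower (26.3% of all genes were higher and 30.5% lower). From the days with Dox to the later days without it in NSC medium, 13 of 15 and 27 of 38 fell, with 1 and 5 higher (30.3% of all genes fell and 25.3% rose). In LIF/2i, 9 of 15 and 22 of 38 fell, with 2 higher in each list (23.9% of all genes fell and 16.6% rose). In the NSC-medium experiment after Dox, 6 of 15 and 25 of 38 were lower in K_FNV than in BKM_FNV, with 2 and 1 higher (25.3% of all genes were lower and 28.1% higher). No explanation was tested.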
